A study of Homo sapiens with 2 samples.

Results

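The type I keratin genes KRT13, KRT15, KRT19, KRT14, KRT16 and KRT17 and the junction gene JUP were examined in a map of chromatin loops from KYSE180, an established cell line of esophageal squamous cell carcinoma (ESCC). The members were all loops with at least 1 end starting between 39500000 and 40000000 on chromosome 17 (hg19), a window of 500 kb, and these numbered 116 of the 31950 loops in the list. Chromatin was captured by H3K27ac HiChIP, in which DNA ends held close together in the nucleus are ligated, pulled down with an antibody to acetylated lysine of histone H3, and sequenced as pairs. Both libraries, labelled 1 and 2, were made from cells given a non-targeting siRNA, and there was no second condition, so every value describes control cells of 1 tumour line. The authors deposited 1 list for both libraries, so no value has a replicate spread and no test across samples was possible.

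Keratins of type I pair with keratins of type II to form the intermediate filaments of epithelial cells. In stratified epithelia, KRT14 and KRT15 belong to the basal layer, KRT13 to the suprabasal layers of moist epithelia such as the esophagus, and KRT16 and KRT17 to injured or hyperproliferative epithelium, while KRT19 is also found in simple epithelia. JUP encodes plakoglobin, which sits in the plaque of desmosomes and adherens junctions and helps to link their cadherins to the cytoskeleton. Acetylation of H3K27 marks active promoters and enhancers, and a loop between such regions is a measured contact, not a measure of expression.

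All 7 genes are protein-coding and read from the minus strand, so sequence upstream of a gene lies at higher positions. The 5′ ends were taken at 39661865 for KRT13, 39684641 for KRT19 and 39743147 for KRT14, and at rounded positions for the other 4, namely 39675000 for KRT15, 39769000 for KRT16, 39781000 for KRT17 and 39943000 for JUP. Their spacing from KRT14 differed by at most 173 bases from that of the GENCODE 44 annotation, which is on hg38 and served only for spacing, strand and the order of genes. Each loop joined 2 anchors, which are bins of 2 kb. Promoters were counted at 2 widths, namely the bins up to 1 kb from the 5′ end and the 5 bins up to 4 kb from it, because a rounded 5′ end can lie next to a bin edge.

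JUP was matched among the 7 genes in the RefSeq promoter table (GRCh38.p14), which gives 2 starts for it. The 250 bases before each start are shown for JUP because no other of the 7 genes was found there. No keratin promoter could therefore be compared with them. They are written 5′ to 3′ on the minus strand, with GC boxes (the letters GGGCGG on either strand) in capitals. The positions are those of GRCh38.p14, chr17:41786712-41786961 for the upper start and chr17:41785977-41786226 for the lower one, and cannot be laid over the hg19 positions of the loops.
JUP, upper start: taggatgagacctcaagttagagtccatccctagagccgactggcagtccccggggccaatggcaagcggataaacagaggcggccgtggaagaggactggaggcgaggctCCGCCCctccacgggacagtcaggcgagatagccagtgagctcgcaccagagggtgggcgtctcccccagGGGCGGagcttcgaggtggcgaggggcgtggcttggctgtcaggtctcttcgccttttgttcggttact
JUP, lower start: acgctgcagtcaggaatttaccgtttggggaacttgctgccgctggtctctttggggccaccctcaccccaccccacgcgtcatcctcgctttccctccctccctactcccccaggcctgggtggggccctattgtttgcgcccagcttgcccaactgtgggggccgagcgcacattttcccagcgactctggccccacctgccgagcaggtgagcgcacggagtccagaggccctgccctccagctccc

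The upper JUP window held 2 GC boxes and the lower 0, and 42.6% of all 35116 RefSeq windows of this length held at least 1. The letters CACCC, read by factors of the KLF family, occurred 4 times on either strand in the lower window and 1 time in the upper one, against 54.7% of all windows with a match, and they shared 0 bases with the GC boxes. Neither window held the TATA box letters TATAAA (10.7% of all windows), TGANTCA (AP-1, 6.57%) or the p63 pair, CATG repeated after a gap of 6 bases (0.296%). A GC content of 63.6% in the upper window and 66.0% in the lower compared with a median of 58.0% (interquartile range 46.4 to 68.0%) over all windows.

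The window was dense in loops but ordinary in their strength. Cut into pieces of 500 kb, the genome had 3329 with at least 1 loop, with a median of 6 loops, and 1.2% of them held as many as the 116 of the keratin and JUP window. On chromosome 17 this was reached by 5 of 128 pieces. The 116 loops carried 122 contacts between 67 anchors inside the window and 41 outside it. The coverage of the 51 first anchors in the window had a median of 12 counts (range 2 to 51), and the median over the list was also 12.

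Of the 116 loops, 4 had 2 or more contacts, which is 3.45% (95% Wilson interval 1.35 to 8.53%) against 3.36% of all loops. The other 112 rested on 1 contact, a count whose exact 95% Poisson interval runs from 0.0253 to 5.57, and such intervals take in counting error alone. The median span was 157 kb, with quartiles at 57.5 and 621.5 kb, against 120 kb in the list. Loops of 1 Mb or more made up 17.2% of the window (Wilson interval 11.4 to 25.1%) and 11.7% of the list, a difference within the interval. Both ends lay inside the window for 69 loops, while 23 ran to lower positions outside it and 24 to higher ones.

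KRT15, KRT14, KRT19 and KRT13 had the most promoter loops, and KRT17, JUP and KRT16 had few. Within 4 kb of the 5′ end, KRT15 had 14 loops with 17 contacts, KRT14 had 11 with 11, KRT19 had 10 with 10 and KRT13 had 8 with 9. KRT17 had 6 loops, JUP had 5 and KRT16 had 1, each with 1 contact. Among the 115120 runs of 5 bins with at least 1 loop, whose median was 2 loops, 1.4% had as many as KRT15, 2.64% as many as KRT14, 3.35% as many as KRT19 and 5.82% as many as KRT13. For KRT17 and JUP these shares were 10.8% and 15.4%, and 1 loop, as at KRT16, is the fewest such a run can have.

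Neighbours in this order had overlapping Poisson intervals. The exact Poisson interval of the contacts within 4 kb was 9.9 to 27.2 for KRT15, 5.49 to 19.7 for KRT14, 1.62 to 11.7 for JUP and 0.0253 to 5.57 for KRT16. Of the 21 pairs of genes, 1 had intervals that did not overlap, KRT15 against KRT16. Counts can differ though their intervals overlap, and differences between pairs of genes were not tested. The annotation lists 6 pseudogenes named for KRT16, 8 for KRT17 and 5 for KRT19. How reads shared with such copies were placed is not given in the sources used here, so the counts of these 3 genes are uncertain, and the part of the copies in them was not tested.

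Up to 1 kb from the 5′ end the counts were 8 loops for KRT14, 7 for KRT13, 6 for KRT15, 5 for KRT19, 2 for JUP, 1 for KRT17 and 0 for KRT16. This width took in 2 bins for KRT13, KRT19 and KRT14 but 1 bin for each rounded gene, so these counts cover unequal lengths. The exact Poisson interval of a count of 0 reaches 3.69 contacts. The interval of KRT16 therefore overlapped those of the other genes except KRT15, whose interval started at 4.12. Those of KRT14 and KRT13 started at 3.45. Overlap of intervals is not a test, so it does not show that these counts are alike. The counts of the rounded genes depended on the position taken. With every 5′ end moved 500 bp up, KRT15 had 14 loops, KRT17 had 5 and KRT16 had 1, and moved 500 bp down, JUP had 4. Over the 7 genes, the 10 bins at this width held 29 promoter ends of loops, the 12 other bins on the upstream side held 20 and the 13 on the downstream side held 6. The other bins on the downstream side therefore held the fewest ends.

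**Figure D1:**
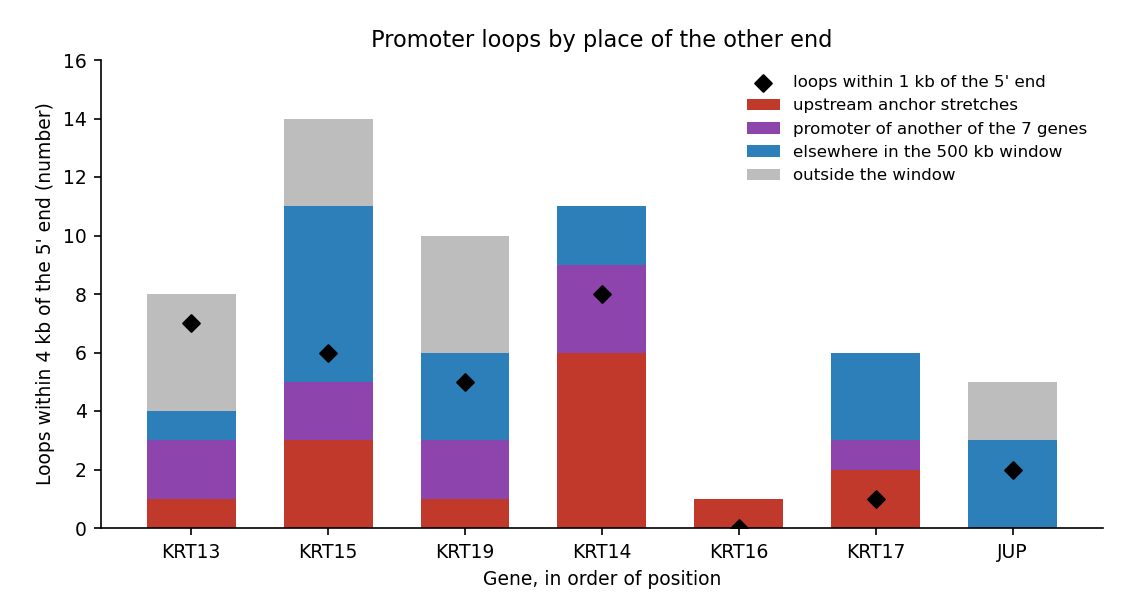
Loops within 4 kb of the 5′ end of each gene (bars, number of loops), divided by where the other end lay, with the number within 1 kb as diamonds. The diamonds cover 2 bins for KRT13, KRT19 and KRT14 and 1 bin for the other genes. KRT15 has 14 loops and KRT16 has 1. Within 4 kb every keratin has at least 1 loop to the upstream anchor stretches, and JUP, with 5 loops in all, has 0. The stretches were chosen for their number of loops in the same list.

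The stretch of anchors with the most loops in the window lay between KRT17 and JUP, 61 to 73 kb upstream of the 5′ end of KRT14. Touching anchors were merged into stretches, and the pair with the most loops between KRT17 and JUP is called the upstream stretches here. The first ran from 39804001 to 39816000 (12 kb, 6 anchors) and the second from 39820001 to 39826000 (6 kb, 3 anchors). In the order of the annotation, KRT42P, EIF1, GAST and HAP1 also lie between KRT17 and JUP, and none of them was placed on the loops. The first stretch had 28 loops with 31 contacts, of which 1 loop lay within it and 27 ran to 18 other stretches. Of the 22628 stretches in the list, whose median was 2 loops, 0.27% had as many loops and 0.46% were as long. Loops of a stretch add up over its anchors, and the part of length in their number was not tested. The second had 13 loops to 8 other stretches, and 1.91% had as many loops. Its loops were fewer than the 14 of the 4 kb stretch at KRT15, from 39674001 to 39678000.

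The anchor from 39806001 to 39808000, in the first stretch, was the most connected of the window, with 9 loops and 11 contacts. Of all 34902 anchors, 0.911% had 9 or more loops. It also had the highest coverage of the window, 51 counts, which 3.68% of first anchors in the list reached. Loops and coverage were both high at the same anchor, and the part of coverage in the number of loops was not tested. Its partners included the 5′ bin of KRT15 and the bins next to the 5′ ends of KRT16 and KRT17.

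**Figure D2:**
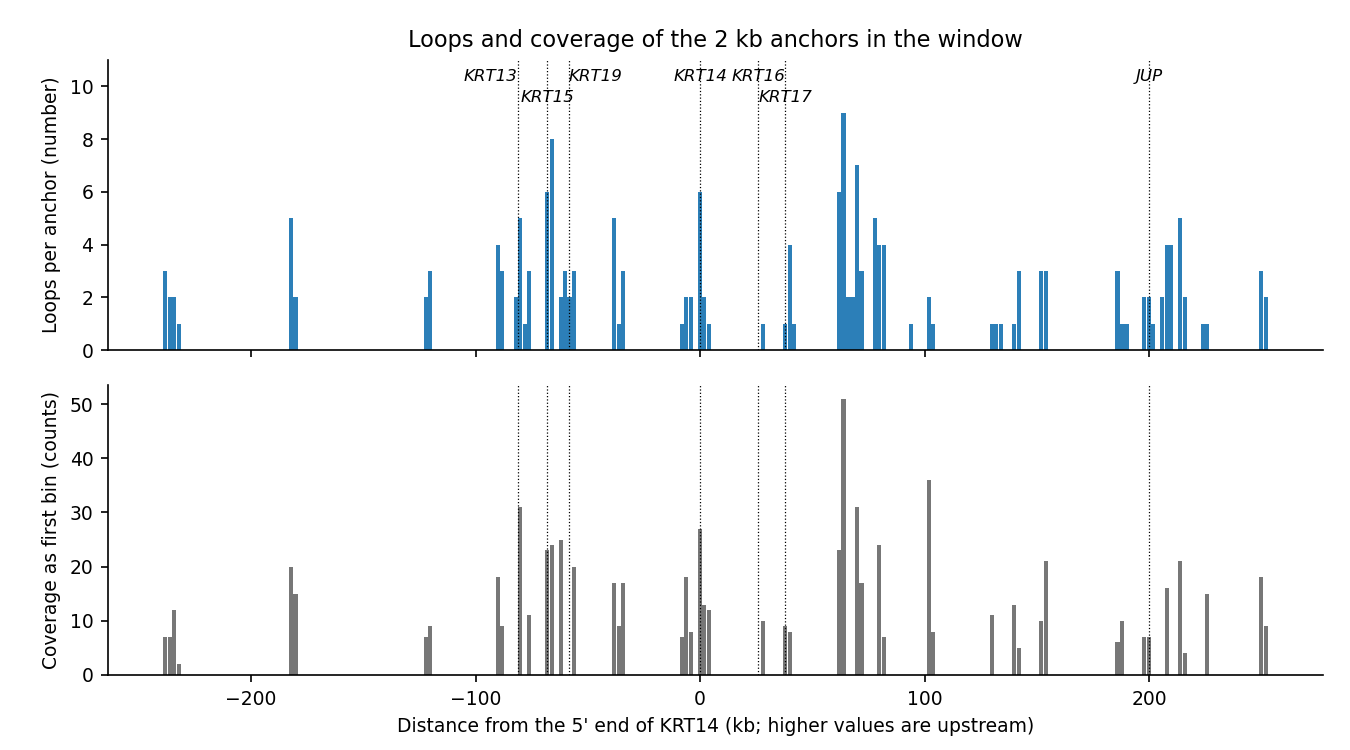
Loops per anchor (top, number) and coverage of the anchors that are the first of a loop (bottom, counts), by distance of the 2 kb anchor from the 5′ end of KRT14, with dotted lines at the 5′ ends. The highest bars in both panels, 9 loops and a coverage of 51, belong to the same anchor of the upstream stretches.

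Counted within 4 kb, each of the 6 keratin promoters was joined to the upstream stretches, and the JUP promoter, with 5 loops in all, was not. The stretches were chosen in these same data for having the most loops, and 14 of their 38 loops were the promoter loops counted here. These joins are therefore partly built into the choice. KRT13, KRT19 and KRT16 were joined by 1 loop of 1 contact each. The exact Poisson interval of a count of 0 reaches 3.69 contacts, so JUP could not be told apart from these keratins. Up to 1 kb from the 5′ end, KRT13, KRT15, KRT14 and KRT17 kept such a loop, while KRT19 and KRT16 had 0. Of the 50 distinct loops within 4 kb of the 7 genes, 14 ended in the upstream stretches, a share of 28.0% (Wilson interval 17.5 to 41.7%). Of the 66 loops of the window without a promoter end, 24 ended there, 36.4% (Wilson interval 25.8 to 48.4%), so the share was no higher among promoter loops than among the others. KRT14, the basal keratin, had 6 such loops of its 11, with spans of 62 to 78 kb. From its 5′ bin at 39742001 to 39744000, 3 loops reached the first stretch, 62, 66 and 70 kb away. The next bin upstream had 1 loop to the second stretch, 78 kb away, and the outer bins of the promoter had the other 2.

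KRT15 had 3 loops to the first stretch, at 128, 132 and 136 kb, with 5 contacts between them. That of 132 kb joined its 5′ bin to the most connected anchor and had 3 contacts (exact Poisson interval 0.619 to 8.77). Among the 15359 loops of the list with at least this span, 23 or 0.15% had as many contacts. The loop was picked for its contacts, and the comparison includes much longer loops. In the list, 2.48% of loops of 50 to 200 kb and 0.322% of those of 1 Mb or more had 2 or more contacts. KRT17 had 2 loops to the upstream stretches, 24 and 40 kb away, and KRT16 had its single loop there, 36 kb away. KRT19 had 1 of 126 kb and KRT13 had 1 of 158 kb. With distance the loops passed over more genes: that of KRT13 crossed the 5′ ends of KRT15, KRT19, KRT14, KRT16 and KRT17.

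**Figure D3:**
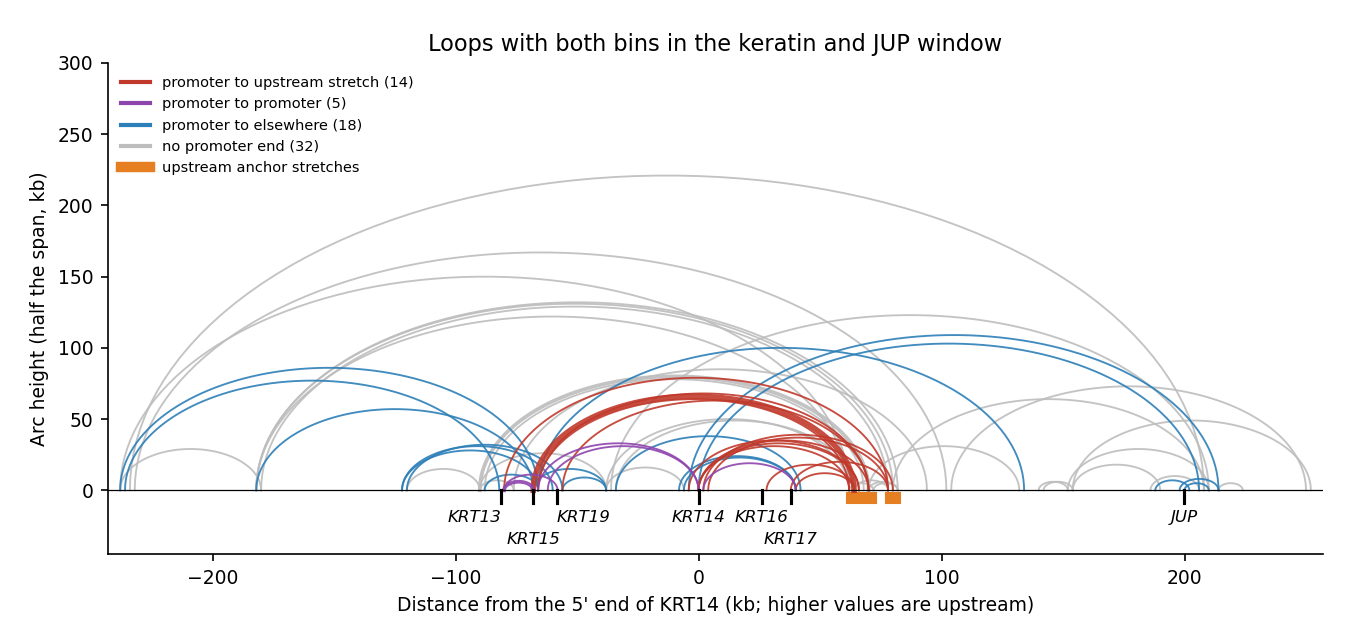
The 69 loops with both ends in the window, drawn as arcs between the middles of their bins by distance from the 5′ end of KRT14 (kb), with line width in proportion to contacts. The 14 red arcs join keratin promoters to the upstream stretches (orange), 5 purple arcs join promoters, 18 blue arcs have 1 promoter end and 32 grey arcs have none.

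Direct loops between promoters joined keratins other than KRT16 and did not involve JUP. Of the 21 pairs of the 7 genes, 5 were joined within 4 kb, each by 1 loop. The 5′ ends of joined pairs lay at most 68.1 kb apart, while that of JUP lies 162 to 281 kb from those of the keratins. JUP had 5 loops in all and KRT16 had 1. The part of distance and of loop number in the missing joins was not tested. KRT13 and KRT15, whose 5′ ends lie 13.1 kb apart, were joined by a loop with 2 contacts (exact Poisson interval 0.242 to 7.22). Of loops with at least its span, 3.05% had as many contacts. KRT13 and KRT19 were joined over 22 kb, KRT14 and KRT17 over 38 kb, KRT14 and KRT19 over 62 kb and KRT14 and KRT15 over 66 kb, each by 1 contact. Counted within 4 kb, KRT14 had loops to 3 other keratin promoters, and KRT13 to 2. The KRT19 bin of the loop with KRT14 was centred 3.64 kb downstream of the KRT19 5′ end. Within 1 kb of the 5′ ends, the pairs KRT13 with KRT15 and KRT13 with KRT19 were joined and the other 19 were not.

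KRT13, KRT15 and KRT19, which lie next to each other, had a longer median loop span than KRT14, KRT16 and KRT17. Together they had 30 distinct loops with a median span of 145 kb, and 9 of these spanned at least 500 kb, 30.0% (Wilson interval 16.7 to 47.9%) against 21.2% of all loops, which lies within the interval. KRT14, KRT16 and KRT17 together had 17 loops, of which KRT14 had 11 and KRT16 had 1. Their median span was 66 kb and the longest was 218 kb, so 0 reached 500 kb (Wilson interval 0 to 18.4%). For JUP it was 2 of 5 loops. The intervals of both keratin groups overlap by a small part, and the limit of 500 kb was set after the spans were seen. KRT13 had loops of 524 and 650 kb and of 1.75 Mb to lower positions and of 2.63 Mb to higher ones. KRT15 had loops of 510 kb to lower positions and of 1.77 and 3.55 Mb to higher ones, both from its 5′ bin. KRT19 had loops of 618 and 1904 kb, both to lower positions.

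Promoter loops ran in both directions. Counted from each gene, 31 of the 55 promoter ends within 4 kb, 56.4% (Wilson interval 43.3 to 68.6%), had their partner upstream. KRT14 had 9 of 11 partners upstream, and the 2 downstream lay in bins counted within 4 kb of KRT15 and KRT19. The bin at KRT19 was centred 3.64 kb downstream of its 5′ end. KRT19 had 7 of its 10 partners downstream, among them 2 loops of 62 and 64 kb to the anchors from 39620001 to 39624000. KRT17 had 4 of its 6 partners downstream, of which 3 lay between KRT19 and KRT14 and 1 was the promoter of KRT14. Of the 55 ends, 40 belonged to loops that crossed the 5′ end of at least 1 other of the 7 genes.

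**Figure D4:**
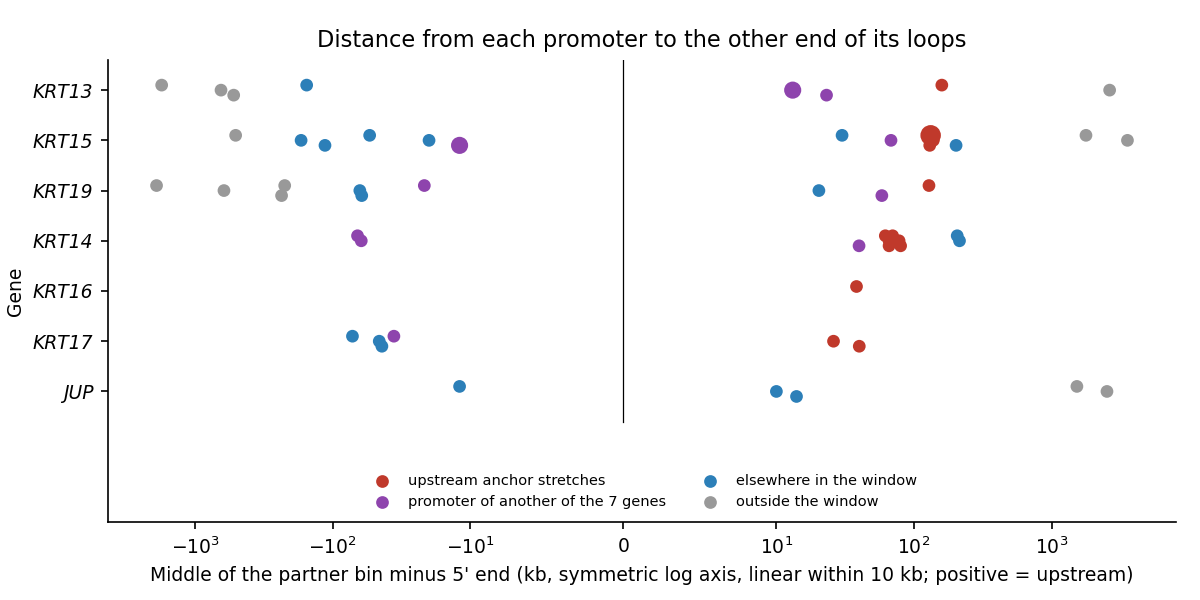
Distance from the 5′ end of each gene to the middle of each partner bin (kb, symmetric log axis, positive values upstream) for loops within 4 kb, with point area in proportion to contacts and colour by place of the partner. The partners of KRT14, KRT16 and KRT17 all lie within 218 kb, and those of KRT13, KRT15, KRT19 and JUP reach beyond 1 Mb.

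JUP, the plakoglobin gene, was reached by loops from positions below KRT17 only beside its promoter. Its 5 promoter loops had 1 contact each and coverage of at most 7 counts at the promoter anchors, against 9 at KRT17, 10 at KRT16 and 24 to 31 at the other 4 keratins. They ran 14 kb downstream, 10 and 16 kb upstream, and 1.53 and 2.52 Mb upstream, and 0 of them ended in a keratin promoter or an upstream stretch. From positions below KRT17, 5 loops reached the sequence at or above JUP within the window, and 0 ended in the 5 bins of the JUP promoter. They ended 5 to 15 kb upstream of its 5′ end. Of these, 2 came from KRT14, 206 and 218 kb away, and 1 of 246 kb came from the anchors between KRT19 and KRT14. The second upstream stretch also had 1 loop there, of 128 kb.

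The anchors from 39948001 to 39954000, 5 to 11 kb upstream of JUP, formed a stretch of 6 kb with 10 loops to 10 other stretches. As many partners were found for 2.21% of all stretches. The JUP promoter itself had 5 loops to 5 stretches, and 13.1% of all stretches had at least as many partners. The 10 loops included 1 to the JUP promoter, 10 kb away, 1 to KRT14 and 1 to the second upstream stretch. Each rested on 1 contact, so the difference between the JUP promoter and the anchors next to it was within counting error.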

How the data were processed

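H3K27ac HiChIP of 2 libraries of KYSE180 cells with non-targeting siRNA was analysed. Per the methods, the authors ran HiC-Pro on the reads, used FitHiChIP (Peak-To-All), described there as finding active loops associated with p63, removed loops unless both ends carried H3K27ac, and deposited 1 list on hg19, per the labels. How p63 entered the choice of loops, and versions and thresholds, are not given in the sources used here. The list holds 2 columns of raw counts deposited by the authors without names. Their order and values fit contacts of a loop and coverage of its first bin, since the second was constant in each of 21636 first bins and contacts exceeded it in 0. Coverage of listed first bins came to 368661 counts in all. Read totals of the libraries are not given in the sources used here.

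Loops were counted per promoter, stretch and window, with 95% Wilson intervals for shares and exact Poisson intervals for counts. Counting was tested on simulated loops. Genes, lists and widths were chosen with earlier results of these data known. The text names the 7 genes with every value, and other genes only by their order in GENCODE 44, since the annotation is not on hg19. For this reason the other type I keratins of the cluster were not counted. Alternatives were promoter width, span, contacts and merging of anchors up to 4 kb apart, and shifted 5′ ends added after seeing the data. Python 3.11.15, numpy 2.4.6, pandas 2.3.3 and scipy 1.17.1 were used.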

Additional observations from a re-analysis of the deposited data

How the results depend on the processing

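Every count rests mostly on single contacts of 1 pooled list, so small counts are bounded by counting error. With both ends required inside it, the window had 69 loops in place of 116, and with 2 or more contacts it had 4. The promoters of the 7 genes had 27 loops within 1 kb, 50 within 4 kb and 2 with 2 or more contacts, and 5 pairs of promoters were joined within 4 kb in place of 2. Wider windows hold more bins and stricter loops are fewer by construction. With the 5′ ends moved 500 bp up or down, settings added after seeing the data, the promoters had 39 and 27 loops. The share of promoter loops to the upstream stretches was 25.9% within 1 kb and 28.0% within 4 kb. Of 65 recomputed values, 42 counted as unchanged (counts within 1.5 times, shares within the interval) and 23 moved, 18 of them for single genes. No paired analysis was possible because the list pools the libraries of the only condition, and no replicate could be left out.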

Other observations

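Of the 116 loops, 24 had an end in the upstream stretches and none within 4 kb of the 7 genes, and 42 had neither. The second upstream stretch had 3 loops, of 258 to 264 kb, to the anchors from 39560001 to 39564000, below KRT13. No pair of different stretches in the window was joined by more than 3 loops, and 44 of the 54 joined pairs had 1. The anchors from 39704001 to 39710000, between KRT19 and KRT14, had 9 loops to 8 other stretches, and 4.3% of all stretches had as many partners. In the annotation, LINC00974 and the keratin gene KRT9 lie between KRT19 and KRT14, and were not placed on the loops. At the upper end of the window, the anchors at 39992001 and 40020001 were joined by a loop of 28 kb with 3 contacts, and 0.295% of loops with at least this span had as many. That loop was also picked for its contacts.

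Outside the window, the bin from 39012001 to 39014000 had loops to 3 places in it, at 650 kb the KRT13 promoter, at 696 kb the anchors between KRT19 and KRT14, and at 798 kb the first upstream stretch. The bin from 39066001 to 39068000 had loops to the KRT19 promoter, 618 kb away, and to the first upstream stretch, 740 kb away. Each of these loops rested on 1 contact, and their recurrence was not tested.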
